A study of Mus musculus with 44 samples.

Results

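The genes of the gastric enterochromaffin-like (ECL) cell described here are 4 of 31484 genes in the data: *Hdc*, *Slc18a2*, *Slc18a1* and *Cckbr*. They were chosen by name for their known roles in the making and storage of histamine and in the response to gastrin. The estimated counts of all transcripts that carry a gene's name were summed, and all 4 were among the 14901 genes that passed the filter on low counts. Messenger RNA from the gastric corpus of BalbC mice, 13 months old and female per the study's methods, was sequenced to examine what lasting gastrin receptor antagonism does in stomachs that lack acid. KO mice lack the beta subunit of the H+/K+ATPase in every cell, and WT mice carry it. Each genotype was given netazepide (NTZ), an antagonist of the gastrin receptor, by repeated subcutaneous injection, or its vehicle polyethylene glycol (PEG), which both control groups received. The libraries numbered 13 in KO/PEG, 11 in KO/NTZ, 11 in WT/PEG and 9 in WT/NTZ.

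ECL cells are endocrine cells of the oxyntic mucosa. Gastrin from the antrum binds the receptor CCKBR on their surface, whereupon they release histamine, which acts on the H2 receptor of parietal cells to raise acid secretion. Histidine decarboxylase (HDC) makes the histamine, and the vesicular monoamine transporter VMAT2 (*Slc18a2*) loads it into granules that also hold chromogranin A (*Chga*). VMAT1 (*Slc18a1*) is the related transporter of other endocrine cells, and mast cells also make and store histamine with HDC and VMAT2. Each library was made from a piece of tissue, so fewer ECL cells and less RNA per ECL cell cannot be told apart.

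In GRCm38 coordinates *Hdc* (ENSMUSG00000027360.5) lies at chr2:126593667-126619299 on the minus strand, *Slc18a2* (ENSMUSG00000025094.8) at chr19:59260896-59296012 on the plus strand, *Slc18a1* (ENSMUSG00000036330.12) at chr8:69037711-69089235 on the minus strand, and *Cckbr* (ENSMUSG00000030898.15) at chr7:105425731-105470898 on the plus strand. *Slc18a2* had a single transcript in the table, of 3785 bases. Of the 5 transcripts of *Hdc*, the coding ENSMUST00000028838 (2392 bases) held 99.1% of its counts, and a transcript with a retained intron, ENSMUST00000138752, held 0.70%. Of the 5 of *Slc18a1*, ENSMUST00000037478 held 97.1%, and of the 2 of *Cckbr*, ENSMUST00000033189 held 99.9%. The gene sums were therefore close to the values of 1 coding transcript for each gene.

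*Hdc* and *Cckbr* were both higher in KO/PEG than in WT/PEG and lower with NTZ in KO mice, and *Slc18a2* did not pass in the former comparison, so the 250 bases before each start are shown (RefSeq, GRCm38.p6, strand of the gene, matches to the motifs in capitals). The table held 3 of the 4 genes, all but *Slc18a1*. *Hdc* is read from chr2:126618679-126618928 (minus strand), *Cckbr* from chr7:105425481-105425730 and *Slc18a2* from chr19:59260628-59260877 (both plus strand).
Hdc: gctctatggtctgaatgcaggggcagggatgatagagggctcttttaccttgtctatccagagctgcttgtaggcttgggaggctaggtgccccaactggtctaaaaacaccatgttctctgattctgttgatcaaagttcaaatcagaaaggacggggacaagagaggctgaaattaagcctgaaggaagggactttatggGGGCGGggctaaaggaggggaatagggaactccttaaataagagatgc
Cckbr: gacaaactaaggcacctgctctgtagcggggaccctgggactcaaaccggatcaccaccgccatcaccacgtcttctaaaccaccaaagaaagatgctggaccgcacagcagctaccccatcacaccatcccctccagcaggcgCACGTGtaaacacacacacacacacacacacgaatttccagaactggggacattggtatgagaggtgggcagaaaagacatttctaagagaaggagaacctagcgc
Slc18a2: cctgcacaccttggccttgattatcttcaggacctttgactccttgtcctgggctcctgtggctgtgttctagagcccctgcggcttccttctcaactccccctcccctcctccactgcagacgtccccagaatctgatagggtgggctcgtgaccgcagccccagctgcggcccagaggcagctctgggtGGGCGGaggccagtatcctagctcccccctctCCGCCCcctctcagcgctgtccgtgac

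The motifs searched on both strands were the GC box GGGCGG, the E-box CACGTG, the TATA motif TATAAA and the cyclic AMP response element TGACGTCA. They do not overlap each other in these windows. The GC box was in the windows of *Hdc* (bases -48 to -43 from the start) and *Slc18a2* (-59 to -54, and -27 to -22 on the other strand), and in 32.7% of 32851 such windows. The E-box was in that of *Cckbr* (-106 to -101) and in 6.02% of all. TATAAA (12.4% of all) and TGACGTCA (1.55%) were in none of the 3 windows. These are matches of letters, and no match says only that the letters are not in this window.

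Libraries held a total of 6065084 to 21945124 estimated counts, and a floor of 3 counts stood for 0.137 to 0.495 CPM (normalized counts scaled to the library's size, the unit used throughout). *Atp4b*, the deleted gene, was lower in KO/PEG than in WT/PEG by a log2 fold change of -9.17, with medians of 5.72 and 3858 CPM. Mitochondrially encoded RNA made up a median of 9.57% (WT/PEG) and 9.41% (WT/NTZ) of the counts of WT mice, against 4.86% (KO/PEG) and 3.81% (KO/NTZ) in KO mice. The relation of expression to transcript length also differed between the genotypes. Its slope in a library, in log2 units of CPM for each doubling of length and against the mean of all libraries, ran from 0.124 to 0.348 for WT/PEG and from 0.0823 to 0.268 for WT/NTZ. For KO/PEG it ran from -0.373 to 0.159 and for KO/NTZ from -0.341 to -0.0621. The labels give animal numbers, and 11 of 11 WT/PEG, 4 of 9 WT/NTZ, 7 of 13 KO/PEG and 1 of 11 KO/NTZ libraries were from animals numbered 100 or above. What the number stands for is not given in the sources used here. The share, the slope and the number range are given beside the results that move with them.

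*Hdc* was highest in KO/PEG and was lower in KO/NTZ, where its range overlapped those of both WT groups. Its normalized count, in CPM after TMM normalization, was 14.5 at the lowest, 23.5 at the median and 56.1 at the highest in WT/PEG, and 9.14, 15.1 and 24.6 in WT/NTZ. The same 3 values were 32.4, 67.9 and 112.8 in KO/PEG and 11.6, 15.04 and 32.7 in KO/NTZ. The 13 KO/PEG libraries all exceeded the median of WT/PEG, and 9 exceeded its highest library. In KO/NTZ 10 of 11 libraries had less *Hdc* than any KO/PEG library, and replicate 26, at 32.7 CPM, was just above the lowest of these. The next highest WT/PEG library after the one at 56.1 had 39.6 CPM.

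*Cckbr*, the gene of the gastrin receptor that NTZ blocks, was also highest in KO/PEG, at a lower level than *Hdc*. Its count was 2.96 at the lowest, 5.97 at the median and 10.2 at the highest in WT/PEG, and 2.07, 5.03 and 6.85 CPM in WT/NTZ. In KO/PEG it was 8.67, 18.4 and 30.8, and in KO/NTZ 4.48, 8.61 and 15.98 CPM. Of the 13 KO/PEG values 11 exceeded the whole WT/PEG range. The 11 KO/NTZ values all lay under the median of KO/PEG, but 10 were also over that of WT/PEG. The 2 KO/PEG libraries with the most *Hdc* (106.3 and 112.8 CPM) also had the most *Cckbr* (29.3 and 30.8 CPM).

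*Slc18a2* did not share this order. Its lowest, median and highest counts were 28.0, 36.2 and 48.1 CPM in WT/PEG and 21.3, 29.5 and 44.4 CPM in WT/NTZ. They were 9.43, 30.6 and 50.1 CPM in KO/PEG and 8.57, 14.97 and 31.4 CPM in KO/NTZ. KO/PEG libraries lay on both sides of the WT/PEG range, with 6 below and 1 above all of it. Of the KO/NTZ libraries 9 of 11 had less than the lowest of WT/PEG. The SD over libraries came to 16.2% of the mean for WT/PEG, but 39.0% for KO/PEG and 49.7% for KO/NTZ.

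*Slc18a1* was near the limit of detection in every group. Its estimated count was between 2 and 37 in a library, with medians of 0.951 CPM (WT/PEG), 0.669 CPM (WT/NTZ), 1.01 CPM (KO/PEG) and 0.756 CPM (KO/NTZ). The 4 groups overlapped over most of their range. The standard error (SE) of its log2 fold change in KO/PEG against WT/PEG was 0.22, beside 0.21 for *Hdc*. Per kilobase of transcript, the median in WT/PEG was 9.51 CPM for *Hdc*, 9.57 for *Slc18a2*, 2.32 for *Cckbr* and 0.348 for *Slc18a1*. In KO/PEG it was 28.3, 8.08, 7.19 and 0.323 CPM per kilobase in the same order.

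**Figure D1:**
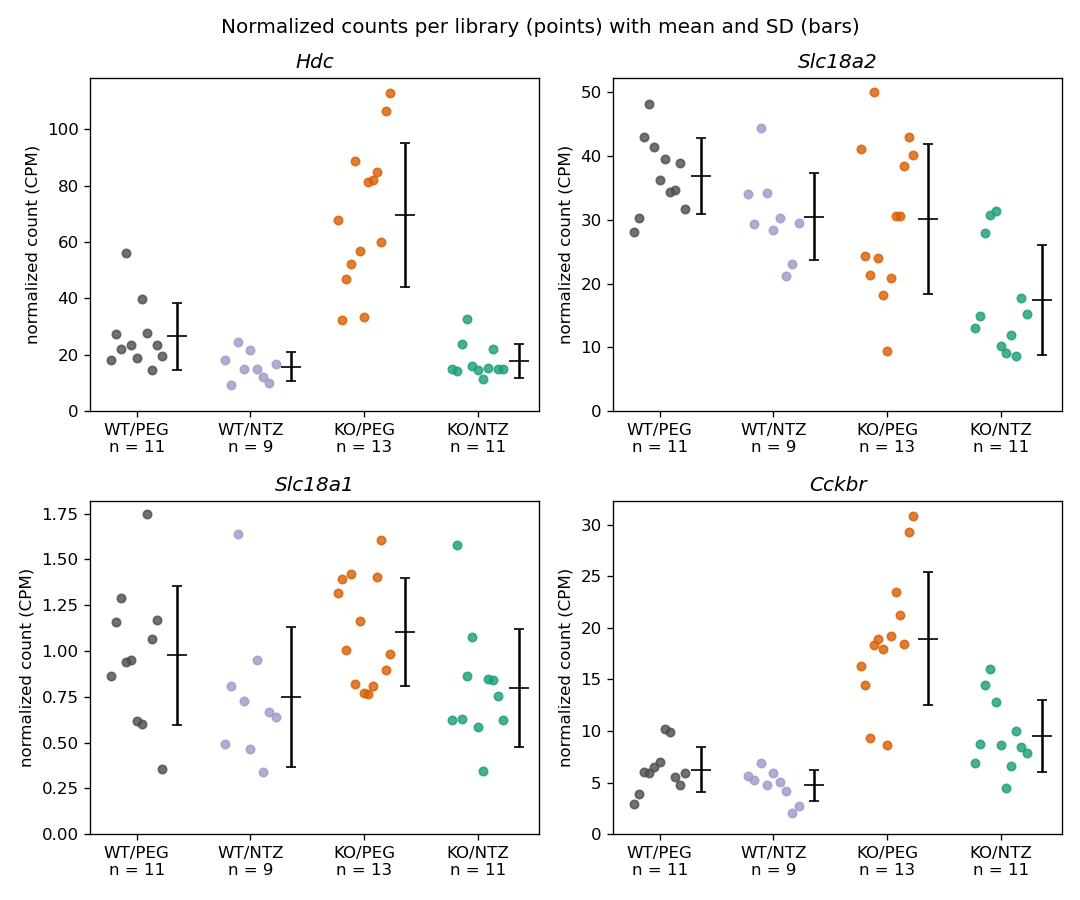
Normalized count in CPM (y axis, from 0) of each gene in every library (points) of the 4 groups, with the mean and SD beside them. The KO/PEG points stand highest for *Hdc* (median 67.9) and *Cckbr* (18.4), while those of *Slc18a2* spread from 9.43 to 50.1 and *Slc18a1* stays below 2 CPM.

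KO/PEG was compared with WT/PEG to see how the loss of the proton pump moved these genes. *Hdc* was 2.63-fold higher in KO/PEG (log2 fold change 1.39, SE 0.21, adjusted p = 2.39e-07, quasi-likelihood test of edgeR, with p-values adjusted over 14901 genes by the Benjamini-Hochberg method). *Cckbr* was 3.04-fold higher (log2 1.61, SE 0.21, adjusted p = 1.5e-08). Among all genes tested, 74.6% passed in this comparison, 37.5% as higher and 37.2% as lower, so 2 of 4 genes called is near the background. The values of *Slc18a2* (log2 -0.29, 95% interval -0.68 to 0.10, adjusted p = 0.19) and *Slc18a1* (log2 0.19, interval -0.24 to 0.61, adjusted p = 0.445) did not pass. Within animals numbered 100 or above the fold changes were 1.63 for *Hdc* and 1.83 for *Cckbr* on the log2 scale, and both passed. The share of all genes that passed within that range is not given. 

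The direction of *Slc18a2* between genotypes depended on the mitochondrial share and the length slope. With the log2 mitochondrial share of the library as a term its log2 fold change was 0.26 (adjusted p = 0.173), and with the slope as a term 1.06 (adjusted p = 0.00212), against -0.29 with neither. Library totals without TMM factors gave 0.048. *Hdc* and *Cckbr* held their calls with either term, at 1.43 and 1.82 with the share and 1.49 and 1.99 with the slope. *Slc18a1* passed with the slope as a term (0.94, adjusted p = 0.0449). The slope overlapped little between genotypes, with a lowest WT/PEG value of 0.124 and a highest KO/PEG value of 0.159.

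NTZ was compared with vehicle in KO mice to see what receptor antagonism did to the raised genes. *Hdc* was 3.91-fold lower in KO/NTZ than in KO/PEG (log2 -1.97, SE 0.22, adjusted p = 1.03e-07), with the second smallest p among the 14901 genes. *Cckbr* was 1.97-fold lower (log2 -0.98, SE 0.21, adjusted p = 0.00234) and *Slc18a2* 1.72-fold lower (log2 -0.78, SE 0.21, adjusted p = 0.0163). In all 3 of 4 genes fell, where 5.56% of all genes passed, 2.97% as higher and 2.6% as lower. *Slc18a1* had a log2 fold change of -0.45 (interval -0.88 to -0.02, adjusted p = 0.198) and did not pass.

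Since 10 of 11 KO/NTZ animals were numbered below 100, the comparison was repeated in that range, with 6 KO/PEG libraries. *Hdc* passed there (log2 -1.68, adjusted p = 0.00321, edgeR), while *Cckbr* (-0.71, adjusted p = 0.166) and *Slc18a2* (-0.77, adjusted p = 0.249) did not. For this range too the share of all genes that passed is not given. With only the 2 KO groups in the fit *Slc18a2* had -0.79 and an adjusted p of 0.111, and *Hdc* and *Cckbr* held their calls. All 3 held them with the mitochondrial share or the length slope as a term. Leaving out each library in turn moved *Hdc* between -2.10 and -1.89, *Cckbr* between -1.08 and -0.90 and *Slc18a2* between -0.90 and -0.70, with every call held.

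In WT mice none of the 4 genes passed, where 1.03% of all genes did and 1 gene of 14901 (0.00671%) was lower. *Hdc* had a log2 fold change of -0.75 (interval -1.20 to -0.29, unadjusted p = 0.00255, adjusted p = 0.143 by edgeR's quasi-likelihood test) and was the only one of the 4 with an unadjusted p under 0.05. Of the 9 WT/NTZ libraries 8 had less *Hdc* than the median of WT/PEG. *Cckbr* had -0.41 (interval -0.87 to 0.06), *Slc18a1* -0.38 (interval -0.87 to 0.11) and *Slc18a2* -0.28 (interval -0.71 to 0.16). With animals numbered 100 or above alone, 11 WT/PEG and 4 WT/NTZ, *Slc18a2* passed at -0.48 (adjusted p = 0.0415 by the same test) and *Hdc* had -0.97 (adjusted p = 0.0576). The shares above are those of the fit of all libraries, and the share of all genes that passed in this smaller fit is not given.

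In the main fit the effect of NTZ on *Hdc* differed between the genotypes. The difference, KO minus WT, was -1.22 on the log2 scale (SE 0.31, interval -1.83 to -0.61, adjusted p = 0.0391 by edgeR's quasi-likelihood test), where 0.96% of all genes passed, 0.718% as lower and 0.242% as higher. This call was close to the threshold. It was lost with the 2 WT/PEG libraries of 1 animal number summed (adjusted p = 0.0553, edgeR). It was also lost without both libraries of number 110 (0.0693), on 1 transcript (0.0651) and by limma-trend (0.0533). Leaving out single libraries kept the value between -1.40 and -1.12 and put the adjusted p between 0.0154 and 0.0595, over 0.05 for 21 of the 44. The differences of *Cckbr* (-0.57, interval -1.18 to 0.04), *Slc18a2* (-0.50, interval -1.09 to 0.09) and *Slc18a1* (-0.07, interval -0.73 to 0.59) did not pass.

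KO/NTZ was set beside both WT groups to see how near each gene was to its level in WT mice. Against WT/NTZ, *Hdc* differed by a log2 fold change of 0.17 (interval -0.28 to 0.63, adjusted p = 0.504), and *Cckbr* was 2.05-fold higher (log2 1.03, adjusted p = 0.000171, edgeR). Here 72.4% of all genes passed, 35.6% as higher and 36.8% as lower. Against WT/PEG, where 76.9% passed, 38.5% as higher and 38.5% as lower, *Cckbr* was higher (log2 0.63, adjusted p = 0.0089) and *Hdc* lower (-0.57, adjusted p = 0.0167). The latter call was lost without the WT/PEG library at 56.1 CPM (-0.39, adjusted p = 0.0767), and with the number range, the mitochondrial share or the slope as a term. That of *Cckbr* was lost with the number range as a term (0.61, adjusted p = 0.0566). By mean CPM *Hdc* was thus ordered KO/PEG (69.6 ± 25.6, SD, n = 13), WT/PEG (26.5 ± 11.9, n = 11), KO/NTZ (17.7 ± 6.11, n = 11) and WT/NTZ (15.8 ± 5.19, n = 9), and the last pair of neighbours did not differ beyond its spread.

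For *Cckbr* the order was KO/PEG (18.9 ± 6.46 CPM), KO/NTZ (9.52 ± 3.51), WT/PEG (6.24 ± 2.20) and WT/NTZ (4.72 ± 1.52), of which only the WT pair did not pass. *Slc18a2* was lower in KO/NTZ than in WT/NTZ (log2 -0.79, adjusted p = 0.00172, edgeR) and WT/PEG (-1.07, adjusted p = 2.16e-05). With the mitochondrial share as a term these were -0.14 and -0.39, and with the length slope 0.40 and 0.36, and none of the 4 passed. The slopes of KO/NTZ and WT/NTZ libraries did not overlap, so the slope and the genotype cannot be told apart in that pair. 

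**Figure D2:**
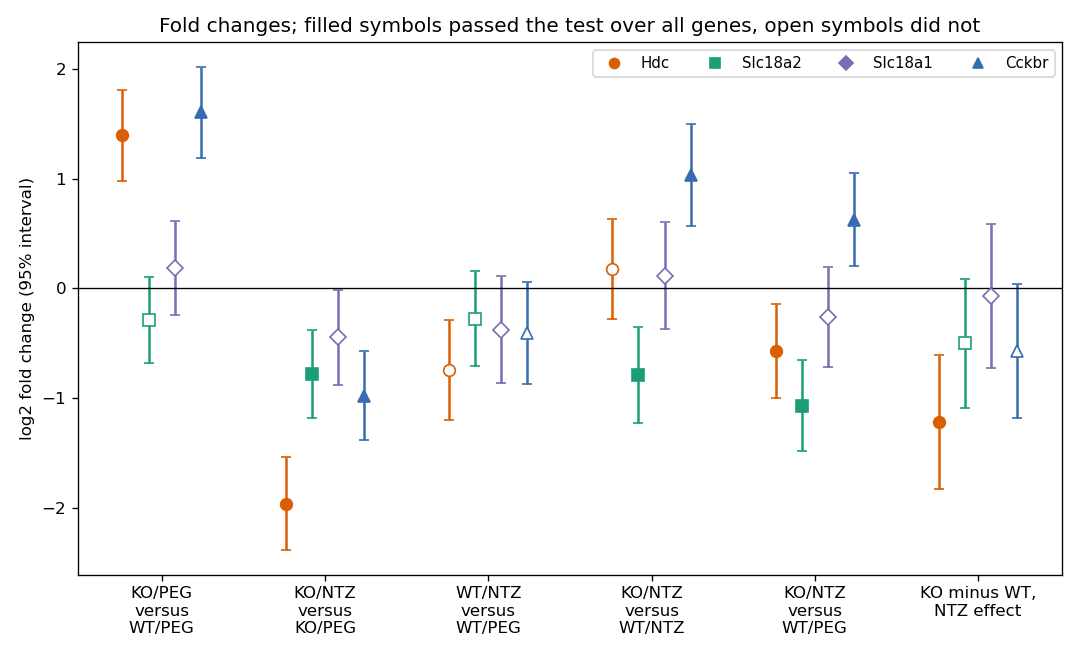
Log2 fold change (y axis) with its 95% interval for each gene in each comparison, and, at the right, the NTZ effect in KO mice minus that in WT mice. Filled symbols passed the test over all genes, and the interval of *Hdc* in KO/NTZ against KO/PEG, -2.39 to -1.54, lies furthest from 0.

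The levels of *Hdc*, *Slc18a2* and *Cckbr* relative to *Chga* and to each other were followed through ratios within a library. Such ratios do not depend on how libraries are scaled. They were tested by permutation, two-sided, with Benjamini-Hochberg adjustment over the 24 tests. The ratio of *Cckbr* to *Chga* had medians of 0.0131 (PEG) and 0.0129 (NTZ) in WT mice and of 0.0114 (PEG) and 0.0140 (NTZ) in KO mice, and the groups overlapped. The 4 differences of its mean log2 ratio were between -0.11 and 0.27, and none passed (SE 0.18 to 0.21). The log2 fold changes of *Cckbr* and *Chga* were 1.61 and 1.63 in KO/PEG against WT/PEG, and -0.98 and -1.22 with NTZ in KO mice.

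The ratio of *Hdc* to *Chga* was lower with NTZ in both genotypes. Its medians were 0.0509 with PEG and 0.0387 with NTZ in WT mice, and 0.0441 with PEG and 0.0249 with NTZ in KO mice. The mean log2 ratio differed by -0.20 between KO/PEG and WT/PEG (adjusted p = 0.241, permutation test), by -0.78 between KO/NTZ and KO/PEG (adjusted p = 0.000206) and by -0.42 between WT/NTZ and WT/PEG (adjusted p = 0.0095, exact permutation test). A lower ratio than in any KO/PEG library was found in 8 of 11 KO/NTZ libraries. The ratio of *Hdc* to *Cckbr* was also lower in KO/NTZ than in KO/PEG, by -0.94 (adjusted p = 0.00016, permutation test), with medians of 1.91 and 3.66. *Hdc* therefore fell by more than *Chga* and *Cckbr* did in the same KO libraries.

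The ratios of *Slc18a2* differed by genotype. Its ratio to *Chga* had medians of 0.0820 (PEG) and 0.0771 (NTZ) in WT mice, and of 0.0183 (PEG) and 0.0247 (NTZ) in KO mice. It was lower in all 13 KO/PEG than in all 11 WT/PEG libraries, and lower in all 11 KO/NTZ than in all 9 WT/NTZ libraries. Of all genes 74.6% and 72.4% passed in these comparisons, and how many ratios part the genotypes was not counted. The differences in mean log2 ratio were -1.99 and -1.67 (adjusted p = 9.6e-05 for each, permutation test and exact permutation test). In the same comparisons the log2 fold changes were 1.63 and 0.72 for *Chga* and -0.29 and -0.79 for *Slc18a2*. NTZ did not move the ratio to *Chga* detectably, with 0.33 in KO mice (SE 0.27) and 0.00 in WT mice (SE 0.10). The ratio of *Hdc* to *Slc18a2*, a median of 0.617 in WT/PEG, was 2.67 in KO/PEG and 1.06 in KO/NTZ. The mitochondrial share and the length slope move with this split. In KO/PEG against WT/PEG the log2 fold changes of *Slc18a2*, *Hdc* and *Cckbr* were -0.29, 1.39 and 1.61 without either term and 1.06, 1.49 and 1.99 with the slope as a term, and the ratios were not tested with it.

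**Figure D3:**
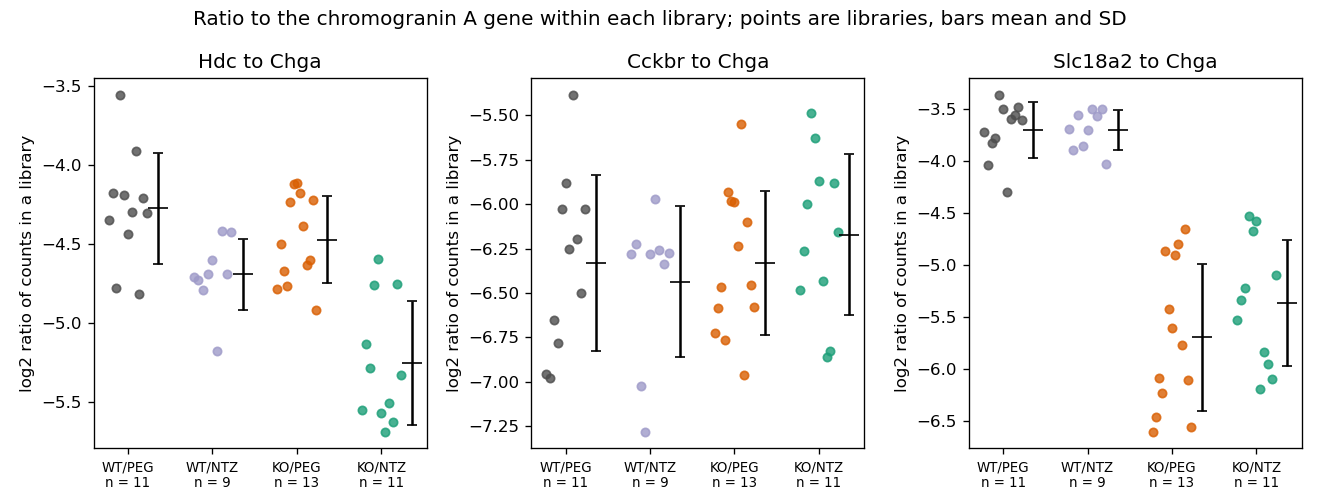
Log2 ratio of counts to *Chga* within each library (y axes, each with its own range) for *Hdc*, *Cckbr* and *Slc18a2* in the 4 groups, with mean and SD. The ratio of *Hdc* is lowest in KO/NTZ (mean -5.25), that of *Cckbr* overlaps in all groups, and that of *Slc18a2* separates KO from WT without overlap. In KO/PEG against WT/PEG *Chga* itself had a log2 fold change of 1.63 and *Slc18a2* one of -0.29.

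Within groups *Hdc* moved with *Chga* over libraries. Pearson's r of log2 CPM was 0.77 in WT/PEG, 0.94 in WT/NTZ and 0.88 in KO/PEG, and Spearman's rho 0.80, 0.93 and 0.81 (adjusted permutation p of r 0.018, 0.00139 and 0.0008, and of rho 0.0177, 0.00616 and 0.00725, over 16 relations). In KO/NTZ r was 0.41 and rho 0.46 (adjusted permutation p = 0.232 and 0.206). Without the 2 libraries farthest from the median r was 0.40, 0.98, 0.74 and 0.15, so the relation in WT/PEG rested on 2 libraries. *Hdc* with *Cckbr* had r of 0.85 and rho of 0.91 in KO/PEG (adjusted permutation p = 0.00139 and 0.0008, r 0.84 without 2 libraries). In KO/NTZ r was 0.83 and rho 0.68 (adjusted permutation p = 0.00508 and 0.0791, r 0.65 without 2 libraries). *Hdc* with *Slc18a2* had r of 0.54 to 0.68 in the 4 groups, and none passed. *Slc18a2* with *Cckbr* passed by r alone in KO/PEG (0.69, adjusted permutation p = 0.022, rho 0.46 with 0.194, r 0.52 without 2 libraries). The same held in KO/NTZ (0.78, adjusted permutation p = 0.0125, rho 0.58 with 0.173, r 0.63 without 2 libraries). For this pair r was 0.48 in WT/PEG and 0.63 in WT/NTZ.

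**Figure D4:**
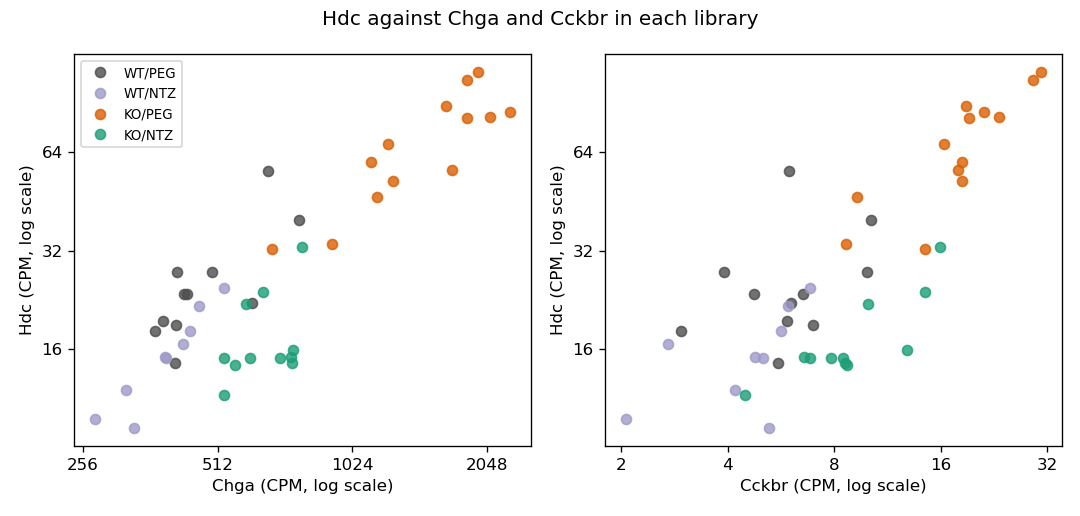
*Hdc* (y axis, CPM, log scale) against *Chga* and *Cckbr* (x axes, CPM, log scale) with 1 point for each library, coloured by group. The KO/PEG points rise together in both panels (r 0.88 and 0.85), and the KO/NTZ points lie at low *Hdc* for their *Chga*.

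*Slc18a2* also moved with the mitochondrial share of its library in the KO groups. Over KO/NTZ libraries r between its log2 CPM and the log2 share was 0.94 and rho 0.92 (adjusted permutation p = 0.00064 and 0.00512, over 32 relations, n = 11), and r was 0.97 without the 2 farthest libraries. In KO/PEG r was 0.72 and rho 0.70 (adjusted permutation p = 0.043 and 0.0614), in WT/PEG r was 0.43 and in WT/NTZ 0.21. With the length slope r was 0.92 and rho 0.89 in KO/NTZ (adjusted permutation p = 0.00112 and 0.00816, r 0.88 without 2 libraries). The slope passed by r alone in KO/PEG (0.70, adjusted permutation p = 0.043, rho 0.70 with 0.0614, r 0.53 without 2 libraries). In WT/NTZ it also passed by r alone (0.80, adjusted permutation p = 0.043, rho 0.67 with 0.199, r 0.46 without 2 libraries). In WT/PEG r was 0.22. *Hdc* had r of -0.28 to 0.53 with the share and -0.41 to 0.60 with the slope, and none of its 8 relations passed. *Cckbr* passed in KO/NTZ with the slope by r alone (0.79, adjusted permutation p = 0.0417, rho 0.72 with 0.075). *Slc18a1* passed in KO/PEG with the share by r alone (0.68, adjusted permutation p = 0.0454, rho 0.69 with 0.0614). Whether the share or the slope acts on the counts of *Slc18a2* was not tested.

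**Figure D5:**
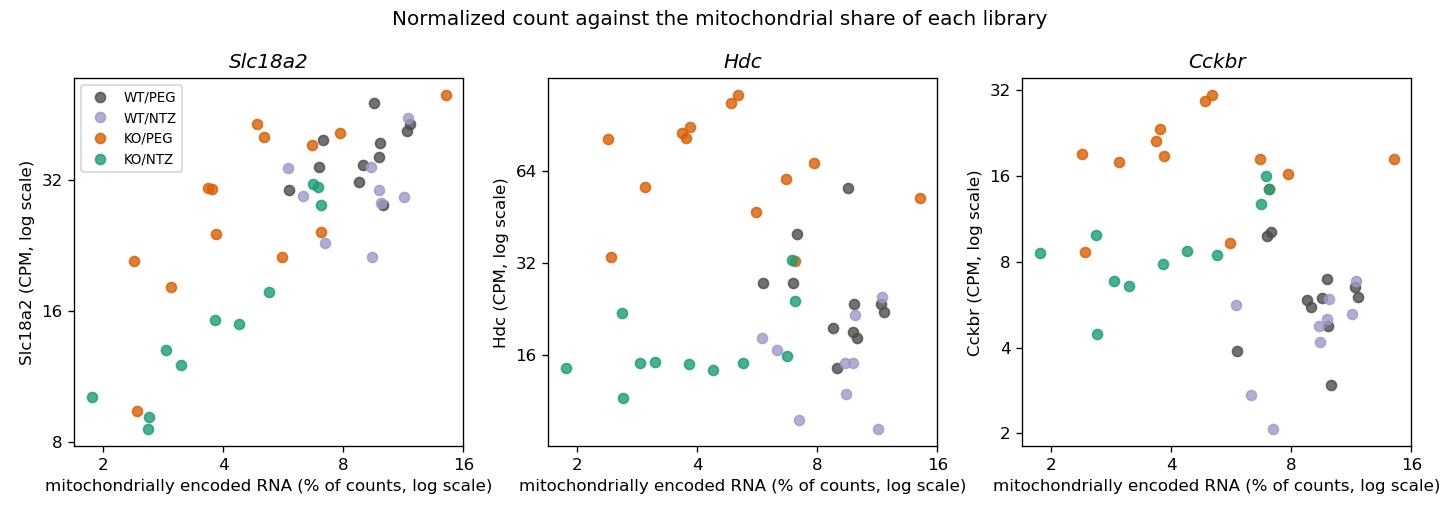
Normalized count (y axis, CPM, log scale) of *Slc18a2*, *Hdc* and *Cckbr* against the percentage of counts from mitochondrially encoded genes (x axis, log scale), with 1 point for each library. *Slc18a2* rises with the share over the KO/NTZ points (r 0.94). *Hdc* keeps its KO/PEG points above its WT/NTZ points at shares where the groups overlap, but not above all its WT/PEG points. A KO/PEG library with a share of 7.04% had 32.4 CPM of *Hdc*, and a WT/PEG library with a share of 7.10% had 39.6 CPM. Over all shares, 9 of the 13 KO/PEG libraries had more *Hdc* than any WT/PEG library.

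Over all 44 libraries the genes most like each member in log2 CPM, by Pearson's r among 14900 others, were given as a description, since the libraries share groups, depth and composition. For *Hdc* they were *Vtn* (r 0.91, and 0.82 once group means were removed), *Chgb* (0.88, 0.60), *Chga* (0.88, 0.79), *Serpina7* (0.87, 0.57) and *Gm2663* (0.84, 0.46). *Cckbr* was ninth for *Hdc* (0.80). For *Cckbr* they were *Chga* (0.88, 0.57), *Pts* (0.81, 0.45), *Hdc* (0.80, 0.66), *Mat1a* (0.80, 0.44) and *Sult1a1* (0.80, 0.30). *Pts* encodes an enzyme of tetrahydrobiopterin synthesis and *Chgb* chromogranin B. The nearest to *Slc18a2* were *Slc25a36* (0.92, 0.88), *Lrp11* (0.90, 0.85), *Rmdn1* (0.89, 0.82), *Atp10d* (0.88, 0.81) and *Bhlhb9* (0.88, 0.85), and *Hdc* ranked 5752 for it (0.35, 0.51). *Cckbr* had 0.13 with *Slc18a2*, and 0.64 once group means were removed.

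The granule and endocrine genes around the 4 members moved in both directions. Of 19 endocrine genes tested, 5 were higher and 9 lower in KO/PEG than in WT/PEG, where 74.6% of all genes passed, 37.5% as higher and 37.2% as lower, so the count is near the background. The median log2 fold change was -0.06 against 0.00 over all genes. *Chga* (1.63), *Chgb* (1.14) and *Ddc* (0.93), which encodes the decarboxylase of serotonin and catecholamine synthesis, were higher. *Pcsk2* (-1.80), which encodes a prohormone convertase, *Scg2* (-1.64), for secretogranin II, and *Syp* (-0.85), for synaptophysin, were among the lower. With NTZ in KO mice 4 fell and 2 rose, where 2.6% of all genes were lower and 2.97% higher. *Chga* (-1.22), *Chgb* (-1.52), the prohormone convertase gene *Pcsk1* (-1.65) and the endocrine transcription factor gene *Insm1* (-0.81) fell with *Hdc*. *Pcsk1n*, whose product inhibits that convertase (1.66), and *Pcsk2* (0.64) rose. No gene of the list passed in WT mice. *Ddc* had -0.18 with NTZ in KO mice and did not pass.

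On the receiving side of histamine, *Hrh2*, the H2 receptor gene, was 8.63-fold lower in KO/PEG than in WT/PEG (log2 -3.11, SE 0.21), with medians of 2.05 and 20.8 CPM. It did not pass with NTZ in KO mice (-0.19). Of 9 genes for histamine breakdown, transport and receptors, 4 could be tested, and 2 were lower and 2 did not pass in KO/PEG against WT/PEG (median -0.42 over the 4), where 37.2% of all genes were lower. *Maob*, a monoamine oxidase gene, was the other lower one (-0.77), and *Hnmt*, which encodes the methyltransferase that inactivates histamine, had -0.07. None of the 4 passed with NTZ in either genotype. *Aoc1*, for diamine oxidase, had a median of 0 CPM in every group.

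Of 5 genes for gastrin, cholecystokinin and related ligands and receptors, 2 were tested. *Cckar*, the cholecystokinin receptor that binds gastrin weakly, moved opposite to *Cckbr* between the genotypes (log2 -1.71 in KO/PEG, adjusted p = 1.28e-05, edgeR) and fell with it in KO/NTZ (-1.21, adjusted p = 0.0253). Its medians were 94.4 CPM (WT/PEG), 88.6 CPM (WT/NTZ), 23.3 CPM (KO/PEG) and 9.14 CPM (KO/NTZ). *Grp* did not pass in either comparison. *Gast*, the gastrin gene of the antrum, had medians of 0 to 0.134 CPM and of 0 to 3 estimated counts, not above the floor of 3 counts. Single libraries stood apart. The highest had 14.6 CPM in WT/PEG, 40.01 CPM in WT/NTZ, 0.945 CPM in KO/PEG and 12.1 CPM in KO/NTZ. The part of such libraries in the levels of the 4 members was not tested beyond leaving out each library in turn.

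Mast cells make histamine too, so their genes were counted beside *Hdc*. Of 13 mast cell genes 11 were higher and 1 lower in KO/PEG than in WT/PEG (median log2 fold change 1.10), where 37.5% of all genes were higher and 37.2% lower, among them *Cpa3* (1.06) and *Mcpt1* (3.71), and *Kit*, which interstitial cells of Cajal also carry, was the lower one (-1.71). With NTZ in KO mice *Tpsab1* (1.22), *Tpsb2* (1.10) and *Gata2* (0.65) rose, 10 did not pass and none fell, where 2.97% of all genes were higher, while *Hdc* fell. The summed mast cell genes ranged from 90.9 to 167.2 CPM (WT/PEG), 105.5 to 161.6 CPM (WT/NTZ), 134.1 to 589.9 CPM (KO/PEG) and 190.04 to 639.1 CPM (KO/NTZ). This sum includes *Kit*, with medians of 65.8 CPM (WT/PEG), 57.5 CPM (WT/NTZ), 18.8 CPM (KO/PEG) and 21.1 CPM (KO/NTZ). No gene of the list had a median of 0 in any group. The part of mast cells in the level of *Hdc* and *Slc18a2* was not tested.

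Genes of other cell types of the stomach were counted too. In KO/PEG against WT/PEG 37.5% of all genes were higher and 37.2% lower, and with NTZ in KO mice 2.97% and 2.6%. Of 7 neuronal genes tested 6 were lower and 1 higher in KO/PEG than in WT/PEG, and 3 (*Prph*, *Slc18a3* and *Tubb3*) rose with NTZ in KO mice, opposite to *Slc18a2*. Summed over all 9 neuronal genes of the list, tested or not, the counts were 13.6 to 25.4 CPM in WT/PEG, 3.49 to 12.9 in KO/PEG and 5.48 to 25.7 in KO/NTZ. Among genes of enterochromaffin cells, the serotonin cells in which *Slc18a1* is known, 2 of 3 tested were higher in KO/PEG, *Tph1* (1.30) and *Fev* (0.88), and none passed with NTZ. The somatostatin gene *Sst* was lower in KO/PEG (2.00-fold, adjusted p = 0.000948) and rose with NTZ (0.89), and both ghrelin cell genes were higher in KO/PEG. Parietal cell genes, from the cells that receive the histamine, were lower for 7 of 8 in KO/PEG, *Atp4a* by 2.00-fold. The 7 include *Atp4b*, the deleted gene, whose call was fixed by the genotype. With NTZ *Aqp4* fell further (-2.26), and *Kcnq1*, the 1 that had not passed in KO/PEG against WT/PEG (-0.11), also fell (-0.57). Chief cell genes were lower for 3 of 4 and smooth muscle genes for 5 of 5 in KO/PEG, and *Acta2* (0.76) and *Des* (0.89) of smooth muscle rose with NTZ. Of 5 neutrophil and macrophage genes 3 were higher in KO/PEG, and *Lyz2* (-0.78) fell with NTZ. What part any of these cells had in the 4 genes was not tested.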

How the data were processed

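The authors prepared stranded, poly(A)-selected libraries (single reads of 75 cycles), quantified GRCm38 transcripts with kallisto 0.42.4 and deposited estimated counts of 94080 transcripts in 44 libraries, with no normalization. Their tests used Sleuth, which was not run here. Groups and animal numbers came from the labels, which give more KO/PEG libraries than the mice the study describes, and all 13 were used. Nothing used here says how libraries relate to mice, so p-values measure the spread between libraries.

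By GENCODE vM21, 92372 transcripts were summed to 31484 genes, and the rest held 0.329% to 1.3% of counts. Sums were rounded, filtered with filterByExpr (minimum count 10, total 15), scaled by TMM and fitted in edgeR 4.0.16 (R 4.3.3) over all 44 libraries with 1 mean per group, without covariates. Quasi-likelihood p-values were adjusted over 14901 genes at 0.05. The code was tested on simulated data. Ratios used counts plus 0.5, and permutation tests (scipy 1.17.1) were exact where a group had under 10 libraries and otherwise used 100000 resamples. Correlations and likeness used log2 CPM with a prior count of 2. Alternatives included DESeq2 1.42.0 and limma-trend (limma 3.58.1). Floors cover counting error only.

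The members, gene lists and tests were chosen with earlier results of these data known. All 4 members were named in every comparison. Of the lists, 14 set genes and any that passed in KO/NTZ against KO/PEG were named, and of all genes the 5 with the highest r to a member. *Mcpt1*, *Maob*, *Grp*, *Fev*, *Scg2* and *Syp* were named after their values were seen. The length slope, and the correlations with it and with the mitochondrial share, were added after seeing the data.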

Additional observations from a re-analysis of the deposited data

Results flagged for a closer look

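For 6 genes of the lists and members the NTZ effects in KO and in WT mice differed by the test of the difference itself (edgeR's quasi-likelihood test, adjusted over all genes). The differences, KO minus WT on the log2 scale, were -1.22 for *Hdc* (adjusted p = 0.0391), -0.91 for *Chga* (0.0301), -1.19 for *Chgb* (0.0103), -1.39 for *Pcsk1* (0.0256), 1.57 for *Pcsk1n* (0.0427) and 1.42 for the neuronal filament gene *Prph* (0.0377). Of the 4 ECL cell genes only *Hdc* was among them, and its call was lost in 21 of 44 fits that left out 1 library, without both libraries of number 110 (adjusted p = 0.0693), with the pair of 1 animal number summed (0.0553), on 1 transcript (0.0651) and by limma-trend (0.0533).

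In WT/NTZ, the group of 9 in which single libraries were tested for standing apart, 3 of 33 genes had a library far from the rest. *Slc18a1* was at 1.64 CPM in replicate 93, where the nearest library had 0.951 CPM. *Insm1* was at 5.16 CPM in replicate 86 (nearest 3.28), and the lysozyme gene *Lyz2* at 252.0 CPM in 1 library (nearest 106.1). Chance gives such a library in about 1 of 20 groups. Without replicate 93 the difference of the NTZ effect on *Slc18a1* was 0.15 in place of -0.07, and neither passed.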

How the results depend on the processing

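Every call on *Hdc* and *Cckbr* in KO/PEG against WT/PEG, and on *Hdc* in KO/NTZ against KO/PEG, was the same under all alternatives run. *Slc18a2* in KO/PEG against WT/PEG turned to 0.048 with library totals, 0.26 with the mitochondrial share and 1.06 with the length slope as a term, and *Slc18a1* passed with the slope (0.94). In KO/NTZ against KO/PEG, *Cckbr* (-0.71) and *Slc18a2* (-0.77) lost their calls in animals numbered below 100, and *Slc18a2* (-0.79) with only the groups compared. In WT mice *Slc18a2* passed at -0.48 with animals numbered 100 or above, a fit for which the share of all genes that passed is not given. In KO/NTZ against WT/NTZ *Slc18a2* was -0.14 with the share and 0.40 with the slope. In KO/NTZ against WT/PEG, *Cckbr* lost its call with the number range as a term (0.61), and *Hdc* with totals (-0.34), the range (-0.50), the share (-0.53) and the slope (-0.48). There *Slc18a2* was -0.39 with the share and 0.36 with the slope, and *Slc18a1* 0.094 and 0.55. The *Hdc* difference between NTZ effects lost its call without both libraries of number 110 (-1.18), with those of the pair with 1 animal number summed (-1.18), on 1 transcript (-1.25) and by limma-trend (-1.22), and that of *Slc18a1* was 0.025 with the share. Within the number range, ratios in KO/NTZ against KO/PEG were -0.85 (*Hdc* to *Slc18a2*, no longer passing) and -0.062 (*Slc18a2* to *Cckbr*), and *Slc18a2* to *Chga* was -0.047 in WT mice. *Cckbr* to *Chga* in KO/PEG against WT/PEG was 0.018 without number 110 and 0.0039 on 1 transcript, and r of *Hdc* with *Slc18a2* in KO/NTZ was -0.040 without 2 libraries. The cause of these changes was not tested.

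Without single libraries, *Hdc* ranged from -1.40 to -1.12 in the difference between NTZ effects and from -0.70 to -0.39 in KO/NTZ against WT/PEG. *Slc18a1* ranged from -0.026 to 0.35 in KO/NTZ against WT/NTZ, where replicate 24 of KO/NTZ turned it, and from -0.21 to 0.15 in the difference, where WT/NTZ replicate 93 and the WT/PEG library with the least *Slc18a1* (0.357 CPM) did. No other call or direction changed. No paired analysis was possible because the groups compared share fewer than 2 numbers. *Slc18a1* had too few counts for a minimum count of 50, and KO/NTZ against WT/PEG could not be fitted within a number range.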

Other observations

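The labels use 1 animal number for 2 WT/PEG libraries, and the counts of these differed by a chi-square of 17.2 per degree of freedom, rank 11 of 55 WT/PEG pairs (5.67 to 89.4). They had 14.5 and 23.5 CPM of *Hdc*, 34.7 and 38.9 CPM of *Slc18a2* and 5.55 and 4.76 CPM of *Cckbr*. The number 110 stands on a KO/PEG library with 81.4 CPM of *Hdc* and 19.2 CPM of *Cckbr* and on a KO/NTZ library with 14.995 and 7.85 CPM.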
